A study of Mus musculus with 283 samples.

Results

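The 8 libraries described here came from T11 mammary tumours in the arms of the study's 7-day time point, out of 283 samples in the series and 264 libraries of tumours and glands in the same table. They were chosen by their labels alone, as the samples of model T11 at 7 days. 4 tumours were from mice given anti-PD1 together with anti-CTLA4 (treated replicates 1 to 4), and 4 were from mice with no therapy (untreated replicates 1 to 4). The labels class T11 as resistant, while its derivatives T11-UV and T11-Apobec are classed as sensitive.

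T11 is known as a transplantable mouse mammary tumour that arose from Trp53-null mammary tissue and has a mesenchymal, claudin-low character. All the tumours compared were grown orthotopically in syngeneic mice, hosts that keep their own immune system, and were assigned to an arm at a diameter of 5 mm. The doses stated were 125 ug for anti-CTLA4 and 10 mg/kg for anti-PD1, in 100 ul into the peritoneum. Injections were bi-weekly, per the labels. The sources used here do not give the strain, age and sex of these mice or whether untreated mice had a control injection. Each library carries its own mouse number. Replicate numbers follow the order of the samples in the series, and equal numbers do not mean matched tumours. The other groups used are T11 at 3 days (4 treated, 4 untreated), T11 at end stage (5 and 5), T11-UV at 7 days (4 and 4) and T11-Apobec at 7 days (4 and 4). Each of these arms has its own untreated tumours. T11-UV and T11-Apobec are known as T11 cells that were made to carry more mutations, by ultraviolet light and by an Apobec cytidine deaminase.

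PD1 is an inhibitory receptor on activated T cells, and its ligands PD-L1 and PD-L2 (genes Cd274 and Pdcd1lg2) are carried by tumour cells, macrophages and dendritic cells. CTLA4 competes with CD28 for CD80 and CD86 when T cells are primed. Antibodies against these receptors are known to act in responding tumours through T cells, whose interferon gamma raises antigen presentation, the chemokines Cxcl9 and Cxcl10 and Cd274 itself.

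After 7 days of therapy no gene of 14722 tested differed between the T11 arms, by limma with Benjamini-Hochberg adjustment at 0.05 (0 higher, 0%, and 0 lower, 0%, of genes tested). The smallest adjusted p was 0.682. At an unadjusted p under 0.05 there were 971 genes (6.6%), of which 366 were higher (2.49%) and 605 lower (4.11%) in treated tumours. Signs over all genes were evenly split, with a difference above 0 in 7254 genes (49.3%) and a median difference of -0.0027 log2 units. Values here are log2(signal + 1), where signal is the authors' upper-quartile normalized value. Signal is not divided by gene length, so levels are compared between libraries and not between genes. A difference of 1 log2 unit is a doubling.

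The intervals show how much difference the 8 tumours leave room for. The 95% interval of the difference lay within 1 log2 unit of 0 in 13537 of the 14722 genes (92%). When every gene above 0 in at least 4 libraries was fitted, 14799 of 22072 intervals lay within that range (67%). The median standard error of a difference was 0.109 log2 units, and the median spread within an arm was 0.157 (SD). For 262 genes (1.78%) that spread was over 1 log2 unit. A difference over 1 log2 unit was found in 86 genes, 64 higher and 22 lower, and none of them passed the test. In bulk tumour RNA, fewer cells of a type and less RNA per cell cannot be told apart.

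The 8 libraries were alike in depth, with an estimated 57.1 to 64.8 M reads and 21568 to 22529 genes above 0. The mean over 50 genes higher in untreated T11 than in untreated KPB25L tumours, another model of the series, was 8.98 to 9.29, and the reverse set of 50 was at 1.49 to 2.37, so all 8 carried T11's profile. Trp53 itself was at 11.57 to 11.92, but a gene-level signal does not show which exons were read and is no check of the null allele. The treated libraries were read on lane 7 and the untreated ones on lane 8 of the same flow cell, so lane and therapy cannot be told apart. The first principal component held 56% of the variance and was led by skeletal muscle genes such as Myh4, Ckm and Myh2, which encode contractile and energy proteins of muscle fibres. The mean of the 16 skeletal muscle genes was 14.46 in treated replicate 2, 10.23 in untreated replicate 1 and 11.30 in untreated replicate 3. It was 4.77, 5.64 and 6.0 in the other treated tumours and 4.89 and 5.18 in the other untreated ones. Myh2, a fast myosin heavy chain, was at 0 in treated replicate 1. Without those 3 libraries, a choice made after the values were seen, limma still called 0 genes.

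The antibodies' own targets had low values in both arms. Pdcd1, which encodes PD1, was at 3.78, 4.41, 4.42 and 4.56 in treated replicates 1 to 4 and at 2.68, 3.54, 5.29 and 4.32 in untreated ones. Ctla4 was at 3.37, 4.16, 3.69 and 4.56 against 3.12, 3.42, 4.49 and 3.13. The arms overlapped for both genes, with untreated replicate 3 among the higher values of each. Both lay below the filter on low values, and in the fit of every gene their differences were 0.34 ± 0.51 (SE) and 0.40 ± 0.40.

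The ligands gave no difference beyond the spread between tumours either. Cd274 was at 7.14, 6.77, 7.50 and 8.35 in treated tumours and at 7.73, 8.36, 7.71 and 7.04 in untreated ones. The highest treated and the highest untreated value were alike, and the difference was -0.27 ± 0.36 log2 units. Cd80 and Cd86, the CD28 and CTLA4 ligands of antigen-presenting cells, differed by -0.45 ± 0.29 and -0.23 ± 0.15. Pdcd1lg2 lay below the filter, at 0.89 to 3.47 in treated and 0.91 to 2.06 in untreated tumours.

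T cell and cytotoxic genes were near the lower end of what these libraries measure. Cd3e, a chain of the T cell receptor complex, was at 4.10, 4.52, 5.06 and 5.39 in treated tumours and at 3.90, 3.01, 4.54 and 3.80 in untreated ones. Untreated replicate 3 lay inside the treated range and the other 3 untreated tumours below it. In the fit of every gene the difference was 0.96 ± 0.40, with an unadjusted limma p of 0.0378, and no gene passed the adjusted test there. Cd8a, the CD8 alpha chain, was at 3.95, 3.94, 5.13 and 4.8 against 4.45, 2.66, 5.35 and 3.51, so that the treated values lay inside the untreated range. Its difference was 0.47 ± 0.56 and became 1.54 without the 3 libraries with muscle transcripts, where the arms did not overlap. Cd4 was at 6.24 to 7.60 in treated and 7.06 to 7.26 in untreated tumours. Foxp3, the regulator of regulatory T cells, was at 5.47 to 6.42 against 5.47 to 5.83.

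Granzyme B (Gzmb), a protease of killer cell granules, was at 4.24, 4.02, 4.36 and 5.00 in treated tumours and at 5.31, 4.35, 4.54 and 5.12 in untreated ones. The arms overlapped, and the difference was -0.42 ± 0.31 with a 95% interval of -1.12 to 0.27. Perforin (Prf1), the pore former of the same granules, lay below the filter at 2.14 to 4.15 against 3.16 to 3.78. Ifng, the gene of interferon gamma, was listed at 0 in treated replicate 3 and in untreated replicates 2 and 4, and reached 3.23 in treated replicate 4.

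Of the 16 genes of the T cell list, 6 passed the filter on low values, all 6 had a positive difference, and their median was 0.27. In the fit of every gene 15 of the 16 were positive, with a median of 0.53, beside a median of -2.3e-05 over all genes. The list mean was 4.69, 4.88, 5.32 and 5.75 in treated and 4.63, 4.33, 5.11 and 4.64 in untreated tumours, so the arms overlapped through untreated replicate 3. Cd247, the zeta chain of the receptor complex, had the largest difference of the list at 0.69 ± 0.29. Of the 14 CD8 and cytotoxicity genes 8 were tested, 3 were positive and the median was -0.08. Over the lists of B cell genes (7 tested, median -0.04), plasma cell genes (7 tested, median -0.20) and NK cell genes (3 tested, median -0.35), no gene passed the test. In the B cell list Cd37, a membrane protein of several leukocyte types, differed by 0.49 ± 0.15.

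No interferon response gene passed the test. Irf1, a transcription factor induced by interferon gamma, was at 12.36, 12.13, 12.14 and 12.38 in treated and at 12.16, 12.14, 12.18 and 12.29 in untreated tumours. The untreated values lay inside the treated range, and the difference was 0.06 ± 0.07, with a 95% interval of -0.11 to 0.23. Cxcl9 and Cxcl10, chemokines that draw T cells through CXCR3, had opposite signs at 0.68 ± 0.36 and -0.46 ± 0.36. Of 25 interferon gamma response genes 24 were tested, with a median of 0.06. Of their intervals 19 lay within 1 log2 unit of 0, beside 92% of all genes tested. The list mean was 8.65, 8.38, 8.68 and 9.31 in treated and 8.59 to 8.71 in untreated tumours, so treated replicate 4 stood above the rest. Of 20 type I interferon response genes 19 had a negative difference, with a median of -0.37 and 7 intervals within 1 log2 unit of 0. Their list mean was 9.37, 8.07, 9.18 and 9.62 in treated and 9.67, 9.65, 9.25 and 9.25 in untreated tumours. Treated replicate 2, the library with the most skeletal muscle transcripts, stood lowest, and the other 3 treated tumours overlapped the untreated ones. Rsad2, an antiviral enzyme, was at 8.79, 7.45, 8.53 and 8.53 against 9.40, 9.59, 8.98 and 8.58, so untreated replicate 4 lay within the treated range. Its difference was -0.81 ± 0.31 (adjusted p = 0.682, limma).

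Antigen presentation genes stayed within narrow limits. B2m, the light chain of MHC class I, was at 15.51, 15.23, 15.65 and 15.77 in treated and at 15.69, 15.64, 15.54 and 15.58 in untreated tumours. The untreated values lay inside the treated range, and the difference was -0.07 ± 0.11. H2-K1, a class I heavy chain, differed by 0.18 ± 0.14 and Tap1, a peptide transporter subunit, by 0.21 ± 0.22. Class I genes tested had a median of -0.01 and differences from -0.18 to 0.34. Class II genes tested had a median of 0.00 and differences from -0.24 to 0.17. All 17 class I and all 10 class II genes tested had intervals within 1 log2 unit of 0, beside 92% of all genes. The 16 housekeeping genes also all lay within that range, with a median of 0.00.

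Genes shared by most macrophages were alike between the arms. Csf1r, the receptor for the macrophage growth factor CSF1, was at 14.53, 14.39, 14.24 and 14.60 in treated and at 14.36, 14.11, 14.37 and 14.58 in untreated tumours. The arms overlapped over most of their range, and the difference was 0.08 ± 0.11. Adgre1, a surface receptor that marks mouse macrophages, differed by -0.03 ± 0.10. 13 of the 14 macrophage genes had intervals within 1 log2 unit of 0, beside 92% of all genes tested. Nos2, the inducible nitric oxide synthase, was at 8.11, 6.89, 7.89 and 8.28 against 8.03, 9.46, 8.09 and 8.14. Its difference of -0.64 ± 0.39 rested on untreated replicate 2 on the high side and treated replicate 2 on the low side, with the other 6 tumours between 7.89 and 8.28.

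Genes of inflammatory and of alternatively activated macrophages leaned in opposite directions without passing the test. Of 10 inflammatory macrophage genes 9 had a negative difference, with a median of -0.53 and no interval within 1 log2 unit of 0. Il1b, an inflammatory cytokine, was at 9.11, 8.54, 10.07 and 10.16 in treated and at 10.57, 11.12, 9.86 and 10.44 in untreated tumours. Untreated replicate 3 lay within the treated range, and the difference was -1.03 ± 0.39 (adjusted p = 0.682, limma). Of 12 alternatively activated macrophage genes 7 were tested and 6 were positive, with a median of 0.66. Clec10a, a lectin of such macrophages and of dendritic cells, was at 7.68, 8.18, 7.81 and 7.71 against 6.72, 6.63, 7.57 and 7.58. Its arms did not overlap, and the difference was 0.72 ± 0.25. Trem1, an activating receptor of neutrophils and monocytes, was at 7.88, 7.61, 7.93 and 8.04 against 8.48, 9.78, 8.45 and 8.33, also without overlap. Its difference was -0.89 ± 0.30. The neutrophil list it belongs to went both ways, with 7 of 10 differences negative and a median of -0.25. Ltf, the granule protein lactoferrin, which epithelium also makes, differed by 1.82 ± 1.60. The neutrophil list mean was 5.6 to 6.31 in treated and 5.28 to 6.99 in untreated tumours, highest in untreated replicate 2. The complement list had 12 of 13 positive differences and a median of 0.25, led by C4b, a component of the classical and lectin pathways, at 0.84 ± 0.31.

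Untreated replicate 2 lay at the edge of its arm in several of these lists. Its mean over the 16 hypoxia and glycolysis genes was 14.19, against 12.62 to 13.26 in the other untreated tumours and 12.58 to 13.30 in the treated ones. Its mean over inflammatory macrophage genes was 8.66, against 6.85 to 7.67 and 6.50 to 7.73. The part of that tumour's state in the medians of these lists was not tested.

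**Figure D1:**
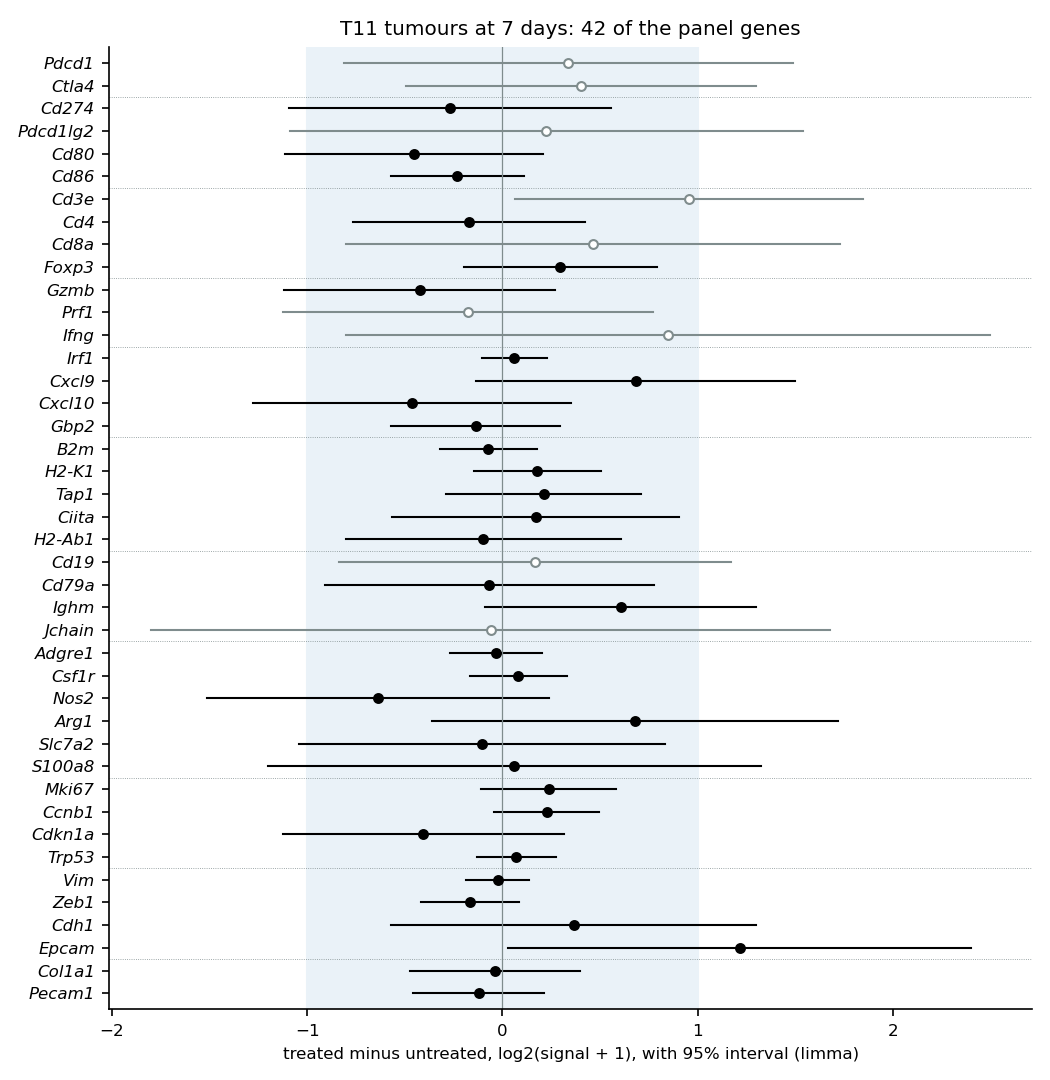
Difference between treated and untreated T11 tumours at 7 days for 42 of the 43 panel genes, in log2(signal + 1), with 95% intervals from limma. The shaded band is 1 log2 unit either side of 0 and open circles are the 9 genes below the filter on low values, taken from the fit of every gene. Over the whole panel 21 of the 34 intervals tested lie inside the band, beside 92% of all genes tested. None of the 43 genes had arms that did not overlap.

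Other leukocyte lists gave no gene past the test. Ccl8, a chemokine of monocytes and eosinophils, was at 9.10, 8.99, 9.85 and 9.38 in treated and at 7.80, 7.81, 9.19 and 8.52 in untreated tumours, with untreated replicate 3 in the treated range, while the 20 chemokine and receptor genes had a median of -0.08. Of 11 checkpoint receptor and ligand genes tested 8 were negative, and Tnfrsf9, a costimulatory receptor of activated T cells, differed by -0.79 ± 0.52. Tnfrsf4, which encodes the costimulatory receptor OX40, had arms that did not overlap, with a difference of 0.40 ± 0.20. Tpsb2, a mast cell tryptase, differed by 1.05 ± 0.42.

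Mesenchymal and stroma genes of the panel had differences near 0, while epithelial ones varied more between tumours. Vim (vimentin), the intermediate filament of mesenchymal cells, was at 17.43, 17.46, 17.46 and 17.56 in treated and at 17.46, 17.57, 17.47 and 17.49 in untreated tumours. All 8 values of Vim lay within a narrow range, and the difference was -0.02 ± 0.07 with an interval of -0.18 to 0.14. Col1a1, the main chain of type I collagen, differed by -0.04 ± 0.19, Zeb1, a repressor of epithelial genes, by -0.17 ± 0.11, and Pecam1, an endothelial adhesion molecule, by -0.12 ± 0.15. Trp53 differed by 0.07 ± 0.09 and its target Cdkn1a, a cell cycle inhibitor, by -0.40 ± 0.32. The proliferation marker Mki67 was at 13.60, 13.15, 13.35 and 13.65 against 13.27, 12.81, 13.28 and 13.46. These arms overlapped, and the difference was 0.24 ± 0.15.

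Epcam, an epithelial adhesion molecule, was the 1 gene with an unadjusted p under 0.05 among the 34 tested, at 1.22 ± 0.52 (unadjusted limma p = 0.0456). Cdh1, the epithelial cadherin, differed by 0.36 ± 0.41. Epcam was at 8.09, 6.20, 7.28 and 5.88 in treated and at 5.59, 5.53, 4.85 and 6.62 in untreated tumours. Treated replicates 1 and 3 were above the rest, and the other 6 tumours overlapped. The mean of the luminal epithelium list was also highest in treated replicates 1 and 3, at 8.56 and 7.96. It was 6.09 and 7.03 in treated replicates 2 and 4, and 5.66, 7.18, 5.83 and 7.77 in untreated replicates 1 to 4. The part of normal gland in these values was not tested.

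Among genes above the median level, the largest shifts without overlap were under 1 log2 unit. The arms did not overlap for 202 genes higher (1.37%) and 271 genes lower (1.84%) in treated tumours, and for 67 of these genes the difference was over 0.5 log2 units. Leaving out 1 tumour at a time gave 240 to 1072 genes higher and 327 to 1163 lower, both highest without treated replicate 1, and without untreated replicate 4 they were 670 and 978. Small arms also separate by chance in some genes, more often with 1 tumour left out, and that share was not estimated. The 10 genes per direction with the largest difference are described next, among non-overlapping genes whose mean lay above the median of tested genes. They were chosen on this difference, so their values are a description and no support is drawn from them. The adjusted p (limma) of each was 0.682.

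The higher genes belonged mostly to sterol and lipid synthesis and to mitosis. Idi1, the isopentenyl diphosphate isomerase of the mevalonate pathway (GRCm38 chr13:8885501-8892451, plus strand), was at 11.73, 11.95, 11.76 and 11.79 in treated tumours and at 11.34, 10.97, 11.38 and 11.44 in untreated ones. The lowest treated value was above the highest untreated one, untreated replicate 2 was the lowest tumour, and the difference was 0.53 ± 0.10. Pmvk, the phosphomevalonate kinase of the same pathway, was at 10.54 to 10.78 against 10.10 to 10.47. Elovl6, which elongates saturated fatty acids, was at 10.76 to 10.90 against 10.08 to 10.68.

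The mitotic genes among the 10 shared the low value of untreated replicate 2. Plk1, a mitotic kinase (chr7:122159439-122169873, plus strand), was at 11.58, 11.60, 11.57 and 11.73 in treated and at 11.40, 10.81, 11.34 and 11.46 in untreated tumours. Ube2c, the ubiquitin-conjugating enzyme of the anaphase-promoting complex (chr2:164769898-164778822, plus strand), was at 12.03, 12.41, 12.03 and 12.15 against 11.91, 11.43, 11.80 and 11.93. In both genes untreated replicate 2 was the lowest tumour and the other 3 untreated tumours lay just under the treated ones. The differences were 0.37 ± 0.13 and 0.39 ± 0.13. Ccnf, a cyclin-like F-box protein, differed by 0.40, Gtse1, a mitotic spindle protein, by 0.39 and Melk, a kinase of dividing cells, by 0.36. Ankrd1, a target of YAP signalling, was at 12.38, 12.38, 12.62 and 13.12 against 12.37, 12.11, 12.25 and 12.24, so 2 treated tumours lay next to the highest untreated one.

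The lower genes were led by regulators of inflammation and stress. Cebpb, a transcription factor of inflammatory and myeloid genes (chr2:167688915-167690418, plus strand), was at 10.82, 10.89, 10.39 and 10.30 in treated and at 11.05, 11.96, 11.40 and 11.29 in untreated tumours. Treated replicates 3 and 4 were the lowest and untreated replicate 2 the highest, and the difference was -0.82 ± 0.20. Dusp1, a phosphatase that switches off MAP kinases (chr17:26505590-26562128, minus strand), was at 10.94, 11.15, 11.20 and 11.12 against 11.41, 12.12, 11.89 and 11.95. The gap between the arms lay between 11.20 and 11.41, and the difference was -0.74 ± 0.14. Cp, which encodes the copper protein ceruloplasmin, differed by -0.65 ± 0.28, with untreated replicate 2 at 14.64 and the other 7 tumours at 12.77 to 13.40. Thbd (thrombomodulin) differed by -0.62 ± 0.16 and the metalloproteinase Mmp19 by -0.49 ± 0.15. Bhlhe41 and Nr1d1, transcriptional repressors of the circadian clock, differed by -0.61 ± 0.15 and -0.45 ± 0.14. Stk17b, a kinase linked to apoptosis, Fstl1, a secreted glycoprotein, and Ndfip1, an adaptor of NEDD4 ubiquitin ligases, differed by -0.44 ± 0.10, -0.38 ± 0.10 and -0.37 ± 0.13.

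Below that level cut, 2 leukocyte genes had wider gaps and were named after their values were seen. Rgs1, a regulator of G protein signals from chemokine receptors (chr1:144242296-144249242, minus strand), was at 7.77, 7.68, 8.69 and 8.93 in treated and at 9.36, 9.87, 9.70 and 10.05 in untreated tumours. Gpr171, a G protein-coupled receptor of lymphocytes (chr3:59096448-59101821, minus strand), was at 7.02, 6.63, 7.50 and 6.94 against 7.85, 8.31, 8.50 and 8.08. All 4 treated tumours were below all 4 untreated ones for each gene. The differences were -1.48 ± 0.29 and -1.16 ± 0.21 (adjusted p = 0.682 for each, limma). Both genes were listed at 0 in the cultured line labelled T-11-CellLine-VALIDATION, a library of another table that was normalized separately.

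**Figure D2:**
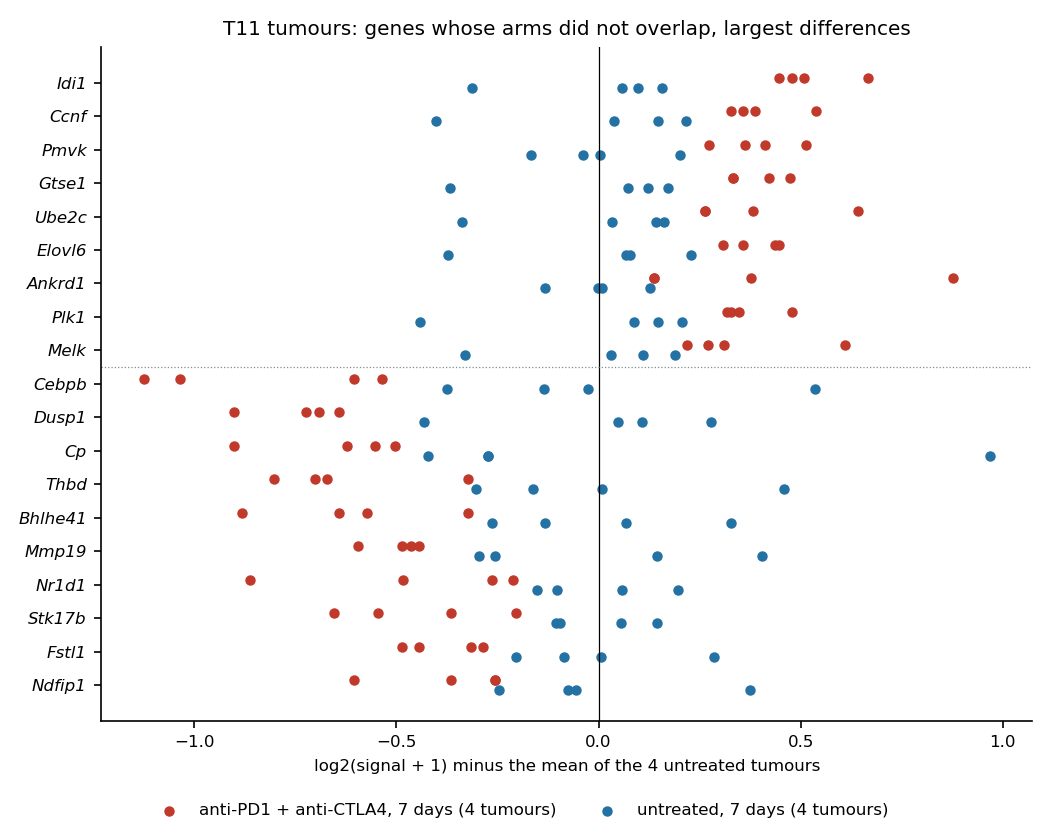
Log2(signal + 1) of each of the 8 T11 tumours at 7 days minus the mean of the 4 untreated tumours, for 19 of the 20 genes chosen, 9 higher and 10 lower: those with the widest gap in means among non-overlapping genes above the median level of genes tested. Red points are treated and blue points untreated tumours. The genes were chosen for this gap, and the differences in mean lie between 0.36 and 0.82 in size.

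Because sterol synthesis and mitosis genes were prominent among the higher genes, a list of each was drawn up after the values were seen. Of 25 sterol synthesis and uptake genes 21 had a positive difference, with a median of 0.23, and 10 had arms that did not overlap on the higher side, beside 1.37% of all genes tested. As the list was drawn up from such genes, nothing is read from that count. Fdps, the farnesyl diphosphate synthase, was at 12.98, 12.98, 12.91 and 12.85 in treated and at 12.53, 12.55, 12.61 and 12.77 in untreated tumours, and differed by 0.31 ± 0.07. Msmo1, a demethylating oxidase of sterols, was at 11.71, 11.95, 11.77 and 11.82 against 11.48, 11.50, 11.57 and 11.51, and differed by 0.30 ± 0.06. Neither gene's arms overlapped. Srebf2, the transcription factor of the pathway, differed by 0.10 ± 0.08, and its arms overlapped. The sterol list mean was 10.93 to 11.03 in treated and 10.69 to 10.87 in untreated tumours. For 24 of the 25 genes the 95% interval lay within 1 log2 unit of 0, beside 92% of all genes tested. A list of 14 fatty acid synthesis genes, also drawn up after the values were seen, had 8 positive differences among 13 tested and a median of 0.05.

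All 30 mitosis genes had a positive difference, with a median of 0.30, and 13 had arms that did not overlap, to be read in the same way. The list mean was 11.67, 11.69, 11.68 and 11.84 in treated and 11.58, 11.05, 11.48 and 11.61 in untreated tumours. Untreated replicate 2 stood lowest, and the other 3 untreated tumours also lay below all 4 treated ones. All 30 intervals lay within 1 log2 unit of 0, beside 92% of all genes tested. The cell cycle list, which shares members with it, had 21 of 21 positive differences with a median of 0.25. Its list mean was 12.15, 12.18, 12.19 and 12.38 in treated tumours and ranged from 11.63 to 12.14 in untreated ones, which did not overlap by a narrow margin.

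Promoters of members of these 2 sets and of Dusp1 are shown because they hold short motifs known from such genes: the CCAAT box, the CHR element of late cell cycle genes and the CRE bound by CREB. They are RefSeq sequences of GRCm38.p6, in windows of 300 bases at each gene's start, 5′ to 3′ on the gene's strand. The Dusp1 window lies at the RefSeq start, inside the longer gene span that GENCODE gives. Capitals mark CCAAT or TTTGAA (CHR) on either strand in the first 3 and TGACGTCA (CRE) in Dusp1.
Idi1, chr13:8885356-8885655, plus strand: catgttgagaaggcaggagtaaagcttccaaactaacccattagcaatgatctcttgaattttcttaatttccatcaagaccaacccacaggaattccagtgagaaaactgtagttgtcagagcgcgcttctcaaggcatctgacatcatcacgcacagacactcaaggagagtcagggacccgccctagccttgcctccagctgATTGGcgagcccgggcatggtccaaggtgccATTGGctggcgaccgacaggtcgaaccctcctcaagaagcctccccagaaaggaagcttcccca
Plk1, chr7:122159185-122159484, plus strand: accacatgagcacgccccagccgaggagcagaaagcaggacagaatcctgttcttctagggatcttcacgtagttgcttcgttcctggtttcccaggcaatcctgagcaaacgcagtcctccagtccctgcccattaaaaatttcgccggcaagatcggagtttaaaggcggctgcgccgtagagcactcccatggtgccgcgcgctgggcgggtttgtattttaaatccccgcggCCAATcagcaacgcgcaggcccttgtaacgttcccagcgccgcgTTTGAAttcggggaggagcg
Ube2c, chr2:164769679-164769978, plus strand: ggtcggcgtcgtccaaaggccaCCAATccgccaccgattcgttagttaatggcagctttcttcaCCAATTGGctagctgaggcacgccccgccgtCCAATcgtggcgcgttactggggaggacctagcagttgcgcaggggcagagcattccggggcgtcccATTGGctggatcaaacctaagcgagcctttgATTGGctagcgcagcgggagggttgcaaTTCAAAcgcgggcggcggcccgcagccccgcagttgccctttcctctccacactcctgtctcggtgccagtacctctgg
Dusp1, chr17:26508423-26508722, minus strand: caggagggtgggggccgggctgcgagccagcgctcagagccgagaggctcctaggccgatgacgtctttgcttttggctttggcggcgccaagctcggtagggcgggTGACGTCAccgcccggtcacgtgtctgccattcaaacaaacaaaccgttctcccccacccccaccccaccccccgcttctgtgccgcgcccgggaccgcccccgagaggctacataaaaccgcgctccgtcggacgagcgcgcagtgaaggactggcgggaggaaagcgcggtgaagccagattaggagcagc
The Idi1 window held 2 CCAAT matches, Plk1 held 1 CCAAT and 1 TTTGAA, and Ube2c held 6 CCAAT, of which 2 overlap on opposite strands, and 1 TTTGAA. Dusp1 held 1 TGACGTCA, no CCAAT and 1 TTTGAA that is left in lower case. Of all 32851 promoter windows of this length, 37.4% held CCAAT, 17.9% TTTGAA and 1.8% TGACGTCA, on either strand. CCAAT was present in 15 of the 17 sterol genes that matched an entry and in 24 of the 25 matched mitosis genes. TTTGAA was present in 19 of those 25 and in 1 of the 17. Among 12 matched housekeeping genes 6 held CCAAT and 3 held TTTGAA. A further motif searched, the sterol regulatory element (SRE), had no match in the windows shown. The SRE was present in 1 of the 17 sterol genes, in 0 of the 25 mitosis genes and in 1.2% of all windows. The motifs were chosen after the values were seen, and a match is a description of these letters only.

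Wide differences that did not pass the test also lay in genes of epithelium, fat, blood and matrix. Krt19, a keratin of luminal epithelium, was at 9.76, 6.76, 9.18 and 7.55 in treated and 4.85, 7.61, 4.08 and 8.68 in untreated tumours. The arms overlapped, and the difference was 2.01 ± 1.06. Its list went both ways, with 4 of the 8 luminal genes tested positive, a median of 0.09 and a lowest difference of -0.94. The 8 adipocyte genes tested had a median of 1.51, led by Adipoq, the fat cell hormone adiponectin, at 8.52, 8.11, 8.07 and 3.57 in treated and 2.28, 3.30, 4.49 and 8.65 in untreated tumours. Treated replicate 4 was low and untreated replicate 4 the highest of the 8, and the difference was 2.39 ± 1.49. The 6 erythroid genes had a median of 1.28. Hba-a2, a haemoglobin alpha chain gene with a near-identical copy, differed by 1.32 ± 0.50. Of 19 fibroblast and collagen genes 14 were negative, with a median of -0.24, and Pdgfra, a growth factor receptor of fibroblasts, differed by -0.40 ± 0.13. Of 13 endothelial genes 12 were negative, with a median of -0.12. Of 14 mesenchymal genes 12 were negative, with a median of -0.14, led by the secreted matrix proteins Spp1 at -0.62 ± 0.27 and Fn1 at -0.49 ± 0.21. Matrix remodelling genes had 17 of 19 negative differences and a median of -0.45, led by Mmp10, a stromelysin, at -1.34 ± 0.57. All 16 genes of the TGF beta axis were negative, with a median of -0.16. No gene of these lists passed the test.

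**Figure D3:**
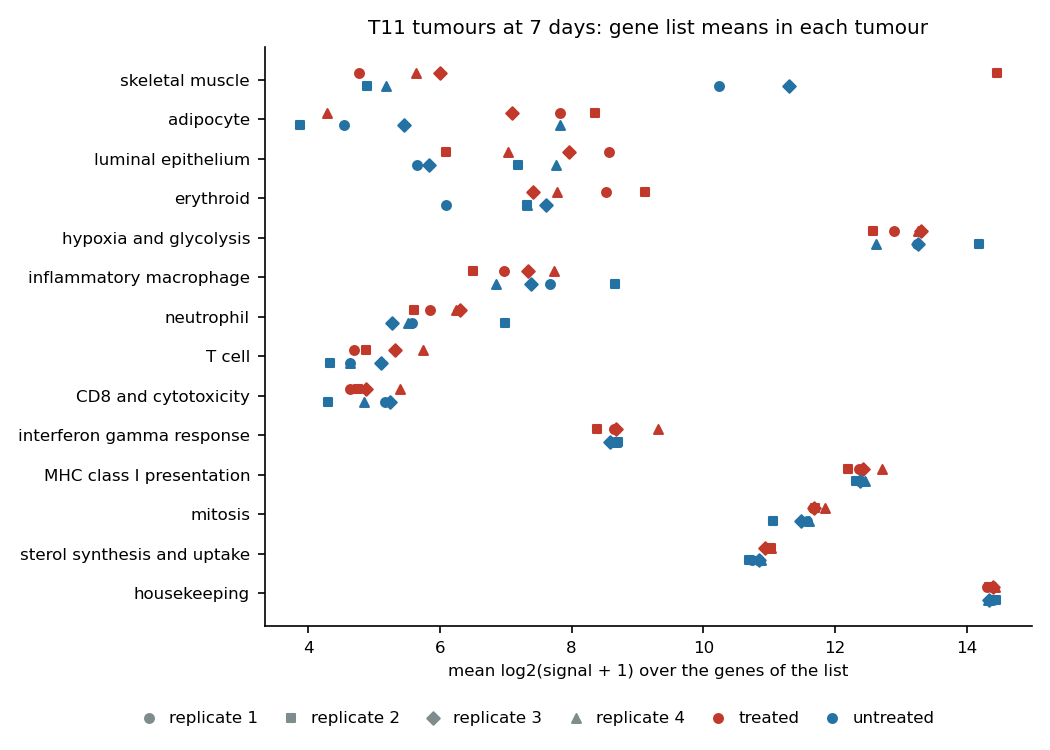
Mean log2(signal + 1) over the genes of each list in each of the 8 T11 tumours at 7 days, with red for treated, blue for untreated and a marker shape for each replicate number. Skeletal muscle, adipocyte, luminal and erythroid lists spread widely within an arm, while MHC class I and housekeeping lists stay close together. The sterol and mitosis lists, drawn up after the values were seen, have arms that do not overlap.

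The T11 tumours at other times were then set beside those at 7 days, in a fit of 42 libraries in 10 groups and 17539 genes. The question was whether the therapy difference of T11 itself changed with time. At 3 days 28 genes were higher (0.16%) and 0 lower (0%) in treated T11 tumours, and at end stage 0 were higher (0%) and 0 lower (0%). The difference at 7 days minus that at 3 days passed the test in 0 genes in each direction (0% and 0%), and in 672 genes at an unadjusted p under 0.05. The difference at 7 days minus that at end stage passed in 0 genes in each direction (0% and 0%), and in 521 at an unadjusted p under 0.05. The 3-day arms were read on different flow cells, and at that time the effects of flow cell and of therapy cannot be told apart. The file headers call the untreated 3-day libraries pretreatment.

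Median therapy differences of the T cell, interferon gamma, MHC class II, CD4 helper, B cell and macrophage lists were highest at 3 days. At 7 days and end stage they had no common order. For the T cell list they were 1.07 at 3 days, 0.53 at 7 days and 0.53 at end stage. For interferon gamma response genes they were 1.34, 0.06 and 0.74, and for MHC class II genes 0.92, 0.02 and 0.60. For CD4 helper genes they were 0.66, 0.02 and -0.26, for B cell genes 0.24, -0.04 and -0.27, and for macrophage genes 0.29, 0.10 and 0.02, so that these 3 lists were lowest at end stage. Medians of the CD8 and cytotoxicity list and of the NK cell list were also highest at 3 days, at 1.01 and 1.06. The neutrophil list was highest at end stage instead, at 0.10 at 3 days, -0.28 at 7 days and 0.69 at end stage. The flow cell limit stated above applies to all 3-day values. Gzmb was at 7.36 ± 1.77 (SD, n = 4) in treated and 5.91 ± 1.41 in untreated tumours at 3 days. At 7 days Gzmb was at 4.41 ± 0.42 and 4.83 ± 0.45, and at end stage at 5.49 ± 1.84 and 4.19 ± 0.48 (n = 5). The treated ranges were 5.48 to 9.73 at 3 days, 4.02 to 5.00 at 7 days and 3.30 to 8.23 at end stage, so the treated 7-day tumours had the least spread of the 3. Since no gene passed the test between times, these orders are descriptions.

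The derivatives of T11 differed from it at the same time point. In T11-UV at 7 days 1739 genes were higher (9.92%) and 2221 lower (12.7%) in treated tumours, and in T11-Apobec 4142 were higher (23.6%) and 4962 lower (28.3%). The test of the difference itself called 812 genes (4.63%) with a higher and 751 (4.28%) with a lower therapy difference in T11-UV than in T11. For T11-Apobec against T11 the counts were 1875 (10.7%) and 1897 (10.8%). In all these were 1563 and 3772 genes, which became 16 and 359 with a spread shared by all 48 tumour groups, and 994 for T11-UV without T11 untreated replicate 2. The median over all genes was -0.12 for T11-UV minus T11 and -0.09 for T11-Apobec minus T11. The T11-UV arms were also read on different flow cells, and what is due to therapy cannot be told apart from the flow cell in that model. Both T11-Apobec arms shared the flow cell of the T11 tumours.

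Of the 43 panel genes, 20 passed this test for T11-UV. Of these 19 had a higher therapy difference than in T11, beside 4.63% of all genes. For T11-Apobec 18 passed, 14 of them higher, beside 10.7% of all genes, and 9 panel genes passed for both. Gzmb was at 11.93 ± 0.55 (SD, n = 4) in treated and 7.13 ± 1.20 in untreated T11-UV tumours, and at 12.58 ± 0.78 and 9.24 ± 0.38 in T11-Apobec, beside 4.41 ± 0.42 and 4.83 ± 0.45 in T11. Its therapy difference exceeded that of T11 by 5.22 ± 1.05 in T11-UV (adjusted p = 0.00217, limma) and by 3.77 ± 1.05 in T11-Apobec (adjusted p = 0.0118, limma). For Cd274 the excess was 3.23 ± 0.79 (adjusted p = 0.00874, limma) and 3.42 ± 0.79 (adjusted p = 0.00295, limma). The untreated derivatives were themselves above T11 in these genes, at 9.56 ± 1.11 and 10.60 ± 0.41 for Cd274 against 7.71 ± 0.54.

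Cd4 and Cd8a mark helper and killer T cells. For Cd4 the excess over T11 was 2.34 ± 0.60 in T11-UV and 2.27 ± 0.60 in T11-Apobec (adjusted p = 0.0125 and 0.00867, limma). For Cd8a it was 3.53 ± 1.10 in T11-UV (adjusted p = 0.038, limma) and 1.84 ± 1.10 in T11-Apobec (adjusted p = 0.21, limma), so the second did not pass. Of the 16 T cell genes 10 passed for T11-UV and 10 for T11-Apobec, with medians of 2.47 and 2.21. Of the 25 interferon gamma response genes 18 passed for T11-UV and 4 for T11-Apobec, with medians of 2.67 and 1.35, beside 4.63% and 10.7% of all genes with a higher therapy difference.

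Nos2 separated T11 from T11-Apobec most among the myeloid panel genes. It was at 14.46 ± 1.26 (SD, n = 4) in treated and 8.78 ± 0.71 in untreated T11-Apobec tumours, against 7.79 ± 0.62 and 8.43 ± 0.69 in T11. The excess was 6.33 ± 0.86 (adjusted p = 1.61e-05, limma), and in T11-UV it was 2.88 ± 0.86 (adjusted p = 0.0301, limma). Slc7a2, the arginine transporter that feeds nitric oxide synthesis, had an excess of 4.79 ± 0.83 in T11-Apobec (adjusted p = 0.000217, limma) and 3.59 ± 0.83 in T11-UV (adjusted p = 0.0061, limma).

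The growth genes Mki67 and Ccnb1, a mitotic cyclin, had differences above 0 in T11 at 7 days and below 0 in the derivatives. Mki67 was at 13.44 ± 0.23 (SD, n = 4) in treated and 13.20 ± 0.28 in untreated T11 tumours, and at 11.87 ± 0.98 and 13.39 ± 0.09 in T11-Apobec. Its own difference in T11-Apobec was -1.52 (adjusted p = 0.00117, limma) and in T11-UV -0.39 (adjusted p = 0.497, limma). Of the 21 cell cycle genes 11 passed with a lower therapy difference in T11-Apobec than in T11, beside 10.8% of all genes. Their median was -1.02 over the list.

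**Figure D4:**
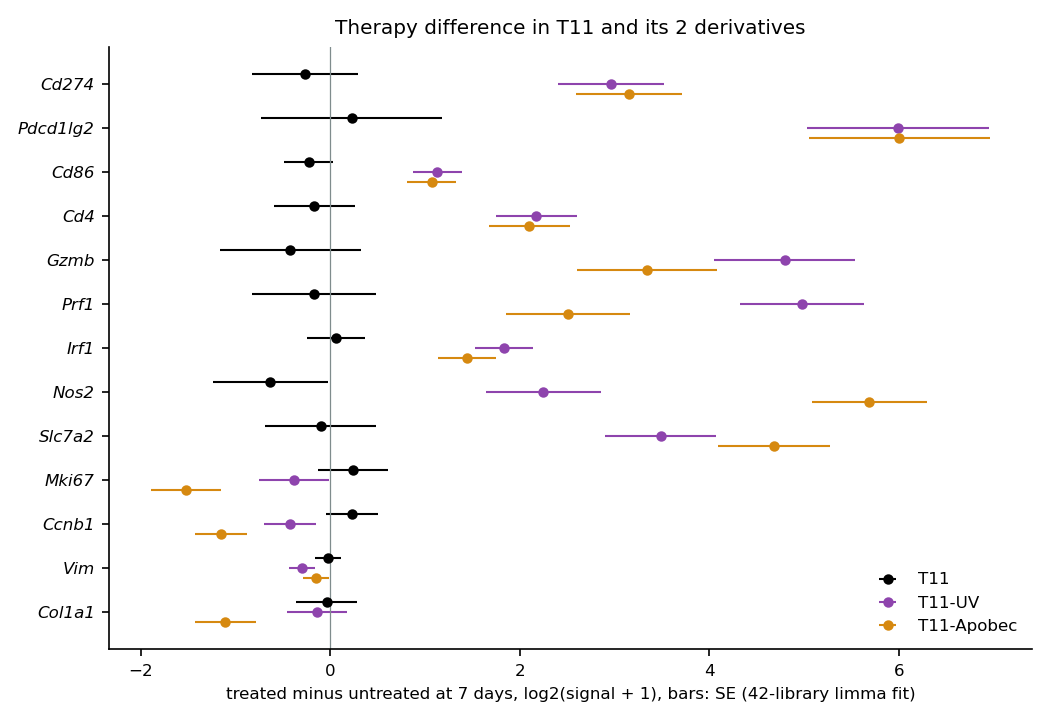
Therapy difference at 7 days, treated minus untreated in log2(signal + 1), for 13 genes in T11 (black), T11-UV (purple) and T11-Apobec (orange), with standard errors from the limma fit of 42 libraries. The T11 values lie between -0.64 and 0.24, while Cd4, Gzmb, Prf1, Pdcd1lg2, Cd274, Nos2 and Slc7a2 lie above 2 in both derivatives.

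The genes of largest difference in T11 at 7 days were followed in the tumours that had no part in their choice. Of the 10 higher genes 5 had the same sign at 3 days, 4 at end stage, 3 in T11-UV and 2 in T11-Apobec, with medians of -0.02, -0.02, -0.25 and -0.75. In T11-Apobec 6 of them passed the test as lower, beside 28.3% of all genes, and 1 as higher, beside 23.6%. Of the 10 lower genes 3 had the same sign at 3 days, 1 at end stage, 3 in T11-UV and 5 in T11-Apobec. Cebpb was at 13.36 ± 1.22 in treated and 10.46 ± 0.27 in untreated T11-Apobec tumours, with an own difference of 2.90 (adjusted p = 2.26e-05, limma).

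The sterol list had a median difference of 0.05 in T11 at 3 days, -0.01 at end stage, 0.26 in T11-UV and -0.57 in T11-Apobec. There 0, 0, 2 and 5 of its genes passed as higher and 0, 0, 0 and 11 as lower. Of all genes 9.92% passed as higher and 12.7% as lower in T11-UV, and 23.6% and 28.3% in T11-Apobec. The mitosis list had medians of -0.01, -0.05, -0.40 and -0.89 in the same order, with 0, 0, 1 and 25 of 30 genes passing as lower and none as higher. For mitosis genes the 7-day T11 tumours were the only ones of the 5 comparisons in which all 30 differences were positive. The list was drawn up after those 7-day values were seen, so nothing is read from that contrast.

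**Figure D5:**
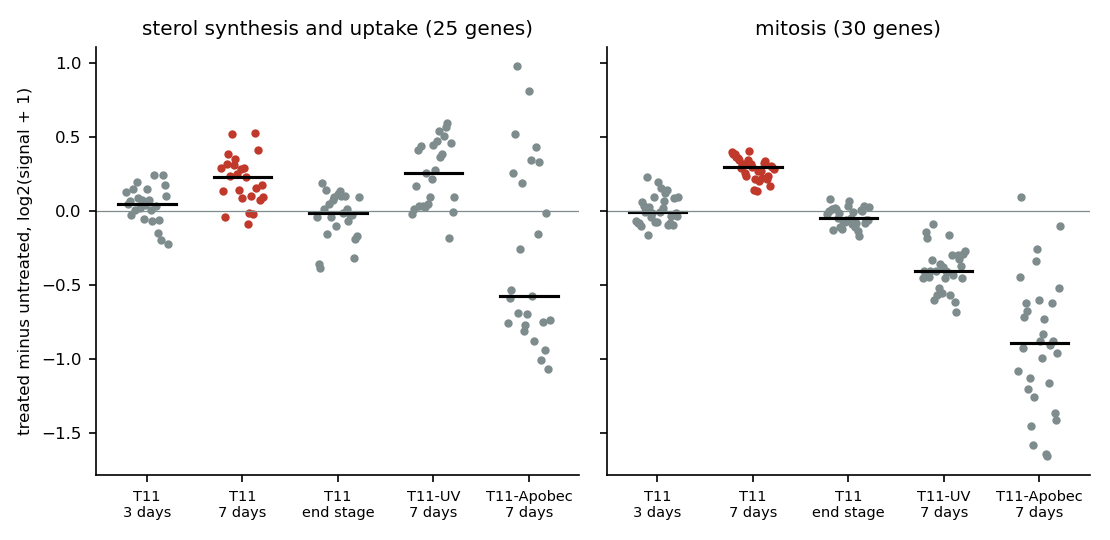
Therapy difference, treated minus untreated in log2(signal + 1), of each of 25 sterol and 30 mitosis genes in T11 at 3 days, 7 days and end stage and in T11-UV and T11-Apobec at 7 days, with the median as a line. Red points are T11 at 7 days, where the medians are 0.23 and 0.30 and the lists were drawn up after the values were seen.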

How the data were processed

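RNA of the tumours was extracted with a Qiagen kit and sequenced as paired ends of 50 bases from Illumina TruSeq mRNA libraries, per the labels' protocols. The submitters' processing notes name mm10 with Salmon, STAR, Picard and SAMtools, whose versions and order the sources used here do not give. Deposited values hold signal per gene, normalized by the authors to an upper quartile, per the file headers. That quartile was 2049 among genes above 0. In these libraries 50.6 to 69.3% of values came within 0.01 of a whole read, so no count test was used.

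Of 45724 entries, 39 with date-like names and 28 with repeated symbols were left out and 45657 kept. Signal was analysed as log2(signal + 1), which understates the change of low genes. Genes above 0 in at least 4 libraries were ranked by mean, and the 14722 of 22072 with a mean over 4.48 log2 units were tested with limma 3.58.1 in R 4.3.3, with a trended prior and Benjamini-Hochberg adjustment at 0.05. Steps were tested on simulated data with known changes of 1 and 2 log2 units in 100 genes each. The fit of 8 libraries recovered 85% and 97% of them, with 10 false calls. The test of T11-UV minus T11 recovered 29% and 71%, with 9 false calls, so many changes of 1 log2 unit would be missed there. The tests between T11 times were not simulated. Nothing in the labels says that libraries share an animal. The p-values rest on the spread between tumours within groups, which the prior shares in part across genes. In the fit of 42 libraries that spread is pooled over its 10 groups. The precision is set by 4 tumours per arm and by the estimated depth given with the libraries.

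Genes named are a panel of 43 whatever their values, up to 10 per direction with the largest difference among non-overlapping genes above the median level, the 2 largest of each of 42 lists described, and up to 5 per direction called between models. Members and lists were chosen with earlier results of these data known. A further 4 lists, Rgs1, Gpr171, Vsig4, Il13ra2 and Creg1 were added after the values were seen. Alternatives tried were the filter, pseudocount, scaling, prior, sharing of spread, each tumour left out, and the muscle libraries. Positions are from GENCODE and promoters from RefSeq, both on GRCm38. Values of some of the genes chosen by these rules are not reported here.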

Additional observations from a re-analysis of the deposited data

Results flagged for a closer look

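In 218 groups of 4 tumours checked for a tumour far from its arm, 9 were found, and chance gives about 1 in 20. Treated replicate 4 stood lowest of its arm in the p53 target list (10.0) and highest in the mitosis list (11.84), and treated replicate 2 stood high in the skeletal muscle list (14.46) and in Slc7a2 (11.48). Untreated replicate 4 stood apart in the endothelium list (10.57), and untreated replicate 3 in Ciita (7.60), the regulator of MHC class II genes. Untreated replicate 2 stood apart in Tap1 (9.85), Nos2 (9.46) and Cp (14.64). Values are log2(signal + 1).

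The therapy difference at 7 days differed from that of T11 in 1563 genes for T11-UV and in 3772 for T11-Apobec, by the limma test of the difference. In T11-UV the excess over T11 was 5.77 log2 units for Pdcd1lg2, 5.58 for Gzmk, 5.22 for Gzmb, 5.16 for Prf1, 3.89 for Cst7, 3.59 for Slc7a2 and 3.23 for Cd274. It was 2.98 for Cd22, 2.88 for Nos2, 2.52 for C1ra, 2.34 for Cd4, 1.77 for Irf1, 1.40 for Lyz2 and 1.36 for Cd86. It was negative for Cd163 (-2.75), Folr2 (-1.59) and Cdca8 (-0.87). Cd163 and Folr2 mark resident-type macrophages.

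In T11-Apobec the excess over T11 was 6.33 for Nos2, 5.78 for Pdcd1lg2, 5.57 for Gdf15, 4.79 for Slc7a2, 4.49 for Cst7, 3.77 for Gzmb and 3.42 for Cd274. It was 2.68 for Prf1, 2.27 for Cd4, 1.67 for Lyz2, 1.56 for Cd68, 1.38 for Irf1 and 1.30 for Cd86. It was negative for Col11a1 (-4.28), Cx3cr1 (-3.19), Itgb4 (-2.38), Prx (-1.15) and Fscn1 (-0.94).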

How the results depend on the processing

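No paired analysis was possible because the labels give no pairing of treated with untreated tumours. Genes called in T11 at 7 days were 0 under every alternative run, and leaving out 1 tumour gave 0 to 0, with 518 to 2133 genes at an unadjusted p under 0.05. Pseudocounts of 0.5 and 16, centring on the median and a robust prior left every count within 1.5 times its value. Fitting every gene gave 307 genes whose arms did not overlap on the higher side. A stricter filter gave 113 higher and 150 lower without overlap, 7255 intervals within 1 log2 unit of 0, and 898 and 2502 genes differing between T11 and T11-UV or T11-Apobec, where fewer genes were tested. A spread shared by all 48 tumour groups gave 16 and 359. Without the 3 muscle libraries, chosen after seeing the data, non-overlapping genes were 1320 higher and 792 lower. Smaller arms separate more often, and the part of arm size in these counts was not tested. In the same setting 454 and 1684 genes differed between models. In only the 16 T11 and T11-Apobec libraries, also chosen after seeing the data, 6369 differed. Leaving out 1 tumour gave 240 to 1072 non-overlapping genes higher and 327 to 1163 lower, both highest without treated replicate 1. For the higher genes there were 670 without untreated replicate 4, 395 without untreated replicate 1, 357 without untreated replicate 3, 323 without treated replicate 2 and 322 without treated replicate 3. For the lower genes it was 978, 506 and 425 without untreated replicates 4, 2 and 1 and 441 without treated replicate 4. Differences between models were 994 to 1466 for T11-UV, lowest without untreated replicate 2, and 2630 to 3223 for T11-Apobec. Of the panel 19 genes changed sign in 45 of 651 values, all with a size of at most 0.34. Cd8a moved to 1.54. A flow cell term could not be fitted.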

Other observations

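Vsig4 and Il13ra2, named after their values were seen, had wide differences with overlapping arms in T11 at 7 days. Vsig4, a complement receptor of resident macrophages, was at 5.39, 6.91, 5.53 and 6.05 in treated and at 3.25, 2.18, 4.93 and 5.44 in untreated tumours. Only untreated replicate 4 reached the treated range, and the difference was 2.02 ± 0.69 (adjusted p = 0.682, limma). In T11-UV the own difference of Vsig4 was -2.83 (adjusted p = 0.00347, limma). Cd163, a scavenger receptor of similar cells, differed by 0.66 ± 0.41 in T11 and by -2.09 in T11-UV (adjusted p = 0.00432, limma). Il13ra2, a decoy receptor for interleukin 13, was at 3.95, 2.60, 5.06 and 5.45 in treated and at 6.04, 8.32, 5.76 and 5.08 in untreated T11 tumours. Untreated replicate 4 lay in the treated range and untreated replicate 2 was highest, and the difference was -2.03 ± 0.79 (adjusted p = 0.682, limma).

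Creg1, a lysosomal glycoprotein, had one of the firmest differences in T11-Apobec, at 2.98 (adjusted p = 3.66e-10, limma), and was 1.56 in T11-UV (adjusted p = 2.39e-05, limma). In T11 at 7 days it was at 10.48, 10.82, 10.67 and 10.90 in treated and at 10.55, 10.51, 10.69 and 10.56 in untreated tumours. The arms overlapped, and the difference was 0.14 ± 0.10. Circadian clock genes, listed after the values were seen, had a median of -0.14 in T11 at 7 days. Per1, a clock repressor, was at 11.99, 12.29, 11.84 and 10.75 against 12.05, 12.62, 12.76 and 12.64. Treated replicate 4 stood lowest, and the difference was -0.80 ± 0.31 (adjusted p = 0.682, limma). The hour at which tumours were taken is not given in the sources used here.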
